A study of Homo sapiens with 6 samples.

Results

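The 48 genes described here encode the WNT ligands, their Frizzled receptors and coreceptors, and the secreted proteins that restrain or enhance ligand binding. They were taken by gene symbol from a table of 27672 genes, in which all 48 were present. They comprised 19 WNT ligands, 10 Frizzled receptors, 5 coreceptors or alternative receptors (LRP5, LRP6, ROR1, ROR2 and RYK), 6 ligand-binding antagonists (SFRP1, SFRP2, SFRP4, SFRP5, FRZB and WIF1), 4 DKK genes and 4 R-spondins. Polyadenylated RNA from the human embryonic stem cell line H9 was sequenced in 2 conditions, with 3 libraries of each. The hESCs (day 0) were untreated cells kept without feeders on fibronectin in DEF medium with bFGF at 30 ng/ml and Noggin at 10 ng/ml. The neuromesodermal progenitor-like cells (NMP-L (D3)) came from the same line after 3 days in N2/B27 basal medium with bFGF at 20 ng/ml and CHIR99021 at 3 µM. The conditions therefore differed in medium, bFGF dose, Noggin and CHIR99021 together, and the contribution of each cannot be told apart. The study's methods also describe inhibitors of BMP and TGF-beta signalling late in NMP-L differentiation, which the labels of these samples do not mention. For the upkeep of H9 cells those methods name TESR medium and Geltrex, which differ from the DEF medium and fibronectin given for these hESCs. Both conditions derive from 1 cell line. The labels call the libraries biological replicates without stating that they came from separate cultures, so the p-values measure the spread between these libraries.

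WNT proteins are lipid-modified secreted ligands that bind Frizzled receptors. With the coreceptors LRP5 or LRP6 they stop the destruction of beta-catenin, which then acts with TCF/LEF factors on target genes, whereas ligands such as WNT5A and WNT11 are better known for signalling through ROR and RYK receptors and the planar cell polarity proteins. CHIR99021 inhibits GSK3, a kinase of the destruction complex, and so activates the pathway below the receptors without any ligand. In the embryo, WNT3A in the caudal epiblast and tail bud is known for maintaining neuromesodermal progenitors, which give rise to spinal cord and paraxial mesoderm.

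The 250 bases before each RefSeq gene start (GRCh38.p14) were available for 34 of the 48 genes, as 37 promoters, and were searched on both strands for 4 forms of the TCF/LEF recognition sequence. These were the common form CTTTGAT together with the variant CTTTGAA as well as the variant CTTTGTT beside the variant CTTTGTA, which share their first letters and can match only 1 at a time from a given base. Among all 35116 promoters of that source, 12.0% held at least 1 match, against 1 of the 37 promoters of these genes (2.70%). The exception was DKK1, a secreted inhibitor that binds LRP5 and LRP6, with CTTTGAA beginning 95 bases and CTTTGTT 76 bases before the start. The promoters of these genes held a median of 24 CpG dinucleotides against 11 over all promoters. No promoter was available for 14 of the 48 genes, among them FZD10, FZD2, WNT10B and FZD7, which were therefore not searched. Of the genes whose transcripts are called higher or lower below, 11 of 15 and 6 of 10 had a promoter. The DKK1 promoter is shown with its matches in capitals, beside those of WNT5B and WNT3A, whose transcripts rose and whose windows held no match. WNT5B has 2 starts in the table, of which the first is shown.
DKK1 (chr10:52314031-52314280, plus strand): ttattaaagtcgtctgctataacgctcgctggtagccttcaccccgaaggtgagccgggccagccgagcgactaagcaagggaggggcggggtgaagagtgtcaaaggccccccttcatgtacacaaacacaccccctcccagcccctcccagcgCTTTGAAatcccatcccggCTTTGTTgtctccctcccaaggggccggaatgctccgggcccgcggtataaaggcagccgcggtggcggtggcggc
WNT5B (chr12:1616806-1617055, plus strand): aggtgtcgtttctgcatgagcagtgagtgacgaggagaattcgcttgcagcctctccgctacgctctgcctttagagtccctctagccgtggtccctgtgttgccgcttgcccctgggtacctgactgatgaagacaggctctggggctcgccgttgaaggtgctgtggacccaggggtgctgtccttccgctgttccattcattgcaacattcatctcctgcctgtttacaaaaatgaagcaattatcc
WNT3A (chr1:228006748-228006997, plus strand): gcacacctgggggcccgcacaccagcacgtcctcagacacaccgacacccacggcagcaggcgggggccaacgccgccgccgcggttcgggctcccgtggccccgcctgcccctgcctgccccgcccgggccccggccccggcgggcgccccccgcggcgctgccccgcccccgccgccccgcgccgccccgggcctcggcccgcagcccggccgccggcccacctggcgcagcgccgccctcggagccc
A match in this window is a description of the sequence, and its absence says only that these letters are not in these 250 bases.

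Libraries held between 19454543 and 23036426 expected counts. The detection floor of 3 counts used here lay at 0.125 to 0.160 CPM, which are counts relative to the scaled library total. Levels are given below in TPM, a unit that allows for transcript length and library total, or as counts where these were low. Unless another fit, a ratio of summed counts or the floor is named, fold changes and adjusted p-values come from edgeR's quasi-likelihood test on counts. That test was fitted and adjusted over all 15517 genes that passed its filter. The labels were checked against T, the primitive streak and NMP factor TBXT, which had at most 2 counts in any hESC library and between 293 and 629 in each NMP-L library. SOX2 was present in all 6 libraries, at 208 to 235 TPM in hESCs and 222 to 278 TPM in NMP-L cells. POU5F1 went from 1990 ± 68.4 TPM in hESCs to 1127 ± 29.1 TPM in NMP-L cells (SD, n = 3). NANOG went from 93.1 ± 6.42 to 16.5 ± 0.612 TPM. The 6 pluripotency markers summed to 3737 to 3987 CPM in hESCs and 2169 to 2274 CPM in NMP-L cells. Of the 6, all tested, 5 were lower. The 6 paraxial and early mesoderm markers summed to 6.09 to 8.54 CPM and 10.2 to 11.6 CPM. Of the 4 tested, 2 were higher and 1 lower. Among marker genes of other cell types, SOX17 and TTR (endoderm), NEUROG2 and PAX3 (neural) and HAND1, NKX2-5 and CDH5 (heart and endothelium) did not exceed the floor in any library. The summed level of 8 endoderm markers was nevertheless 5.71 to 6.84 CPM in hESCs and 21.0 to 32.6 CPM in NMP-L cells, with 2 of the 3 tested markers higher. Over 6 neural progenitor markers it was 2.51 to 3.60 CPM and 11.3 to 14.5 CPM, with 1 of 2 tested markers higher. The 5 neural crest markers summed to 27.1 to 31.8 CPM in hESCs and 5.29 to 6.02 CPM in NMP-L cells. Of these 5, 4 were tested, with 1 higher and 2 lower. The 6 lateral mesoderm, endothelium and heart markers, of which HAND1, NKX2-5 and CDH5 are 3, summed to 400 to 418 CPM in hESCs and 100.4 to 117 CPM in NMP-L cells, nearly all of it KDR, the only one tested, which was lower. Of 4 trophoblast markers 3 were in the table, with sums of 5.04 to 5.74 CPM and 11.2 to 14.5 CPM and 1 of 1 tested higher. The part of such cells in the results below was not tested. In bulk RNA, a change in the number of cells that carry a transcript and a change in the amount per cell cannot be told apart.

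Of the 48 genes, 35 had enough counts to be tested and 25 of these (71.4%) differed between NMP-L cells and hESCs at an adjusted p under 0.05, where 55.8% of all genes tested did. The direction was up for 15 genes and down for 10, against 29.1% and 26.7% of all genes. A change of at least 2-fold was found for 14 of the 35 (40.0%, against 18.6% of all genes), 9 of them higher (9.38% of all genes) and 5 lower (9.18% of all genes) in NMP-L cells. The median log2 fold change of the 35 was 0.29 and the median size regardless of sign was 0.82, against 0.03 and 0.40 over all genes. The libraries of the 2 conditions did not overlap for 26 of the 35 (74.3%, against 61.6% of all genes). For a single gene, an exact permutation test of 3 against 3 libraries cannot give a two-sided p under 0.1. The split depended on the scale, since relative to GAPDH counts 21 genes rose and 7 fell, and relative to HPRT1 counts 9 rose and 11 fell. These reference genes shifted the median log2 fold change of all genes by 0.56 and -0.30. On their scales 73.8% and 45.7% of all genes tested differed. GAPDH itself was lower in NMP-L cells, with a log2 fold change of -0.55 (SE 0.08, edgeR adjusted p = 0.00014). HPRT1 did not pass the test, with a log2 fold change of 0.28 (SE 0.12, edgeR adjusted p = 0.069). The 14 genes with at least a 2-fold change kept their call and direction in every one of 16 alternative analyses that tested them. Of these 14, 11 also stayed at least 2-fold in all of those. Of the 13 untested genes, WNT1, WNT2, WNT6, SFRP4, DKK2 and DKK4 never exceeded 3 counts.

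**Figure D1:**
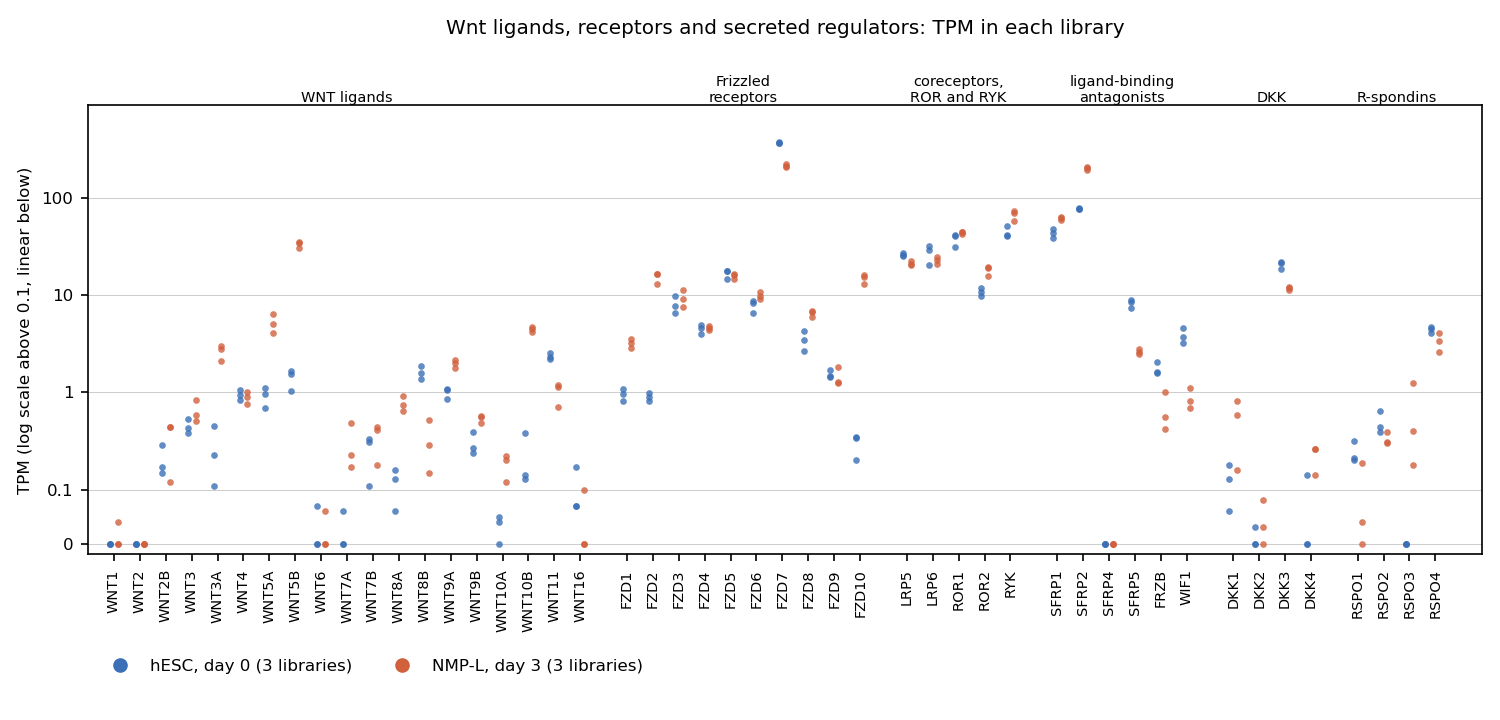
TPM of all 48 genes in each of 6 libraries (y axis, logarithmic above 0.1 TPM and linear below), with hESC libraries in blue and NMP-L libraries in orange, grouped by family. FZD7 and SFRP2 reach over 200 TPM in at least 1 condition, and WNT5B, WNT10B, FZD2 and FZD10 show the widest gaps between the conditions.

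Of the WNT ligands, 12 of 19 were tested, 6 rose in NMP-L cells, 2 fell and 4 did not pass the test. The share of tested ligands that passed was 66.7%, against 55.8% of all genes tested. The summed level of the family was 10.2 ± 0.455 TPM (SD, n = 3) in hESCs and 53.1 ± 3.66 TPM in NMP-L cells, 5.20 times higher. WNT5B, best known as a ligand of beta-catenin-independent signalling (GRCh37 chromosome 12, 1639057 to 1756378, plus strand), had 1.04, 1.54 and 1.65 TPM in the hESC libraries and 35.1, 30.7 and 34.5 TPM in the NMP-L libraries. Every NMP-L library was far above every hESC library, a log2 fold change of 4.47 (SE 0.16, 22.1-fold, edgeR adjusted p = 3.0e-09). WNT5B made up 13.8% of the family's summed TPM in hESCs and 63.0% in NMP-L cells. Its relative WNT5A, which signals through ROR2, had 0.96, 0.69 and 1.10 TPM in hESCs and 5.07, 4.06 and 6.44 TPM in NMP-L cells. The conditions did not overlap for WNT5A, and its log2 fold change was 2.40 (SE 0.19, 5.29-fold, edgeR adjusted p = 1.1e-06).

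The other ligands that rose did so from a low level. WNT3A, the caudal epiblast ligand, was counted 6, 13 and 3 times at day 0 and 85, 61 and 94 times at day 3, or 0.23, 0.45 and 0.11 TPM against 2.77, 2.11 and 3.03 TPM. All 3 NMP-L libraries lay above all hESC libraries, with a log2 fold change of 3.19 (SE 0.35, 9.15-fold, edgeR adjusted p = 1.5e-05), or 3.87 without hESC replicate 2. WNT10B was counted 8, 3 and 3 times in hESCs and 109, 95 and 116 times in NMP-L cells, at 0.38, 0.13 and 0.14 TPM against 4.49, 4.15 and 4.73 TPM. The 2 sets of libraries were again apart for WNT10B, and the log2 fold change was 4.25 (SE 0.31, 19.02-fold, edgeR adjusted p = 5.0e-07), or 4.86 without hESC replicate 1. WNT8A, known from the posterior epiblast, stayed under 1 CPM on average in both conditions, with 2, 1 and 2 reads counted at day 0 and 11, 12 and 16 at day 3. The ratio of its summed counts, scaled to library size, was 6.66 (exact 95% counting interval 2.62 to 21.6), and it passed the test (edgeR adjusted p = 0.00074). WNT9A rose less, with a log2 fold change of 0.89 (SE 0.29, edgeR adjusted p = 0.021), and passed the threshold in 10 of the 15 alternatives that tested it. The adjusted p of WNT9A ranged from 0.0013 to 0.23 over those alternatives.

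WNT11 and WNT8B fell. WNT11, a ligand known for directing cell movements at gastrulation, was the most abundant ligand of the hESCs, with 2.54, 2.30 and 2.22 TPM there and 1.18, 1.14 and 0.71 TPM in NMP-L cells. Its hESC libraries all exceeded its NMP-L libraries, and the log2 fold change was -1.31 (SE 0.27, edgeR adjusted p = 0.0014). The share of WNT11 in the summed TPM of the ligands went from 23.1% to 1.92%. WNT8B, a ligand known from the forebrain and hippocampus, had 33, 26 and 29 counts (1.88, 1.37 and 1.59 TPM) in hESCs and 3, 10 and 6 counts (0.15, 0.52 and 0.29 TPM) in NMP-L cells. The decrease in WNT8B separated all libraries of the 2 conditions, with a log2 fold change of -2.41 (SE 0.38, 5.33-fold lower, edgeR adjusted p = 0.00023).

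The other tested ligands, WNT3, WNT4, WNT7B and WNT9B, had log2 fold changes between -0.20 and 0.72 and did not pass the test. WNT9B was close to the threshold (edgeR adjusted p = 0.056), its libraries did not overlap in CPM, and it passed in 5 of 16 alternatives. The log2 fold change of WNT4 was 0.36 relative to GAPDH counts, and that of WNT7B was -0.024 without hESC replicate 1. Of the untested ligands, WNT7A had 0, 0 and 1 counts in hESCs and 4, 8 and 3 in NMP-L cells, a ratio of 12.8 with a counting interval from 1.97 to 539. WNT10A had 0, 1 and 1 counts against 3, 5 and 5, a ratio of 5.55 (1.26 to 50.6). Neither WNT2B, with at most 12 counts, nor WNT16, with at most 5, was tested. These intervals cover counting error only. Of the exons of WNT2B, some overlap ST7L on the opposite strand, and since the use of strand in counting is not given in the sources used here, reads of the 2 genes may be mixed.

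Several WNT genes lie in pairs in the genome, and members of a pair did not always move together. WNT9A and WNT3A, 59.1 kb apart on chromosome 1 (GRCh37) and on opposite strands, both rose, by log2 fold changes of 0.89 and 3.19. WNT10B rose while WNT1, 6.59 kb away on chromosome 12, never exceeded 3 counts. Neither WNT3 nor WNT9B, whose annotated ends are 46 bp apart on chromosome 17, passed the test. WNT6 and WNT10A, 6.62 kb apart on chromosome 2, were both too low to be tested.

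All 10 Frizzled receptors were tested, 4 rose in NMP-L cells, 1 fell and 5 did not pass the test. The share that passed was 50%, against 55.8% of all genes tested. FZD10 (GRCh37 chromosome 12, 130647004 to 130650285, plus strand), a receptor known from the primitive streak and neural tube, had 0.34, 0.35 and 0.20 TPM in hESCs and 15.5, 12.9 and 16.2 TPM in NMP-L cells. These values came from 10, 11 and 6 counts against 527, 415 and 558 counts, with no overlap between the conditions. The log2 fold change of FZD10 was 5.54 (SE 0.20, 46.7-fold, edgeR adjusted p = 2.9e-09), which exceeded that of every other tested gene among the 48. FZD2 had 0.99, 0.81 and 0.90 TPM in hESCs and 16.4, 13.2 and 16.4 TPM in NMP-L cells. Its libraries did not overlap either, and it rose by a log2 fold change of 3.99 (SE 0.15, 15.9-fold, edgeR adjusted p = 3.2e-09). FZD1 went from 1.09, 0.82 and 0.96 TPM to 3.57, 2.89 and 3.26 TPM. All NMP-L libraries were above all hESC libraries, with a log2 fold change of 1.66 (SE 0.17, 3.17-fold, edgeR adjusted p = 9.0e-06). FZD8 rose by less than 2-fold, by a log2 fold change of 0.82 (SE 0.17, edgeR adjusted p = 0.0016). That call was lost relative to HPRT1 counts (adjusted p = 0.069).

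FZD7, the receptor with the highest level in both conditions, fell. It had 372, 367 and 381 TPM in the hESC libraries and 227, 212 and 208 TPM in the NMP-L libraries, which did not overlap. The log2 fold change was -0.89 (SE 0.07, 1.85-fold lower, edgeR adjusted p = 1.6e-06), and it ranged from -1.19 to -0.33 over the 16 alternatives, all past the threshold. FZD7 still made up 72.6% ± 1.69 (SD, n = 3) of the summed Frizzled TPM in NMP-L cells, from 89.4% ± 0.909 in hESCs. The summed level of the 10 receptors was 418 ± 10.95 TPM in hESCs and 297 ± 9.94 TPM in NMP-L cells, whereas without FZD7 it was 44.3 ± 4.71 TPM and 81.1 ± 4.94 TPM. FZD10 held 0.071% of the summed TPM in hESCs and 5.01% in NMP-L cells, and FZD2 held 0.22% and 5.15%. The order of the receptors changed accordingly. In hESCs FZD7 was followed by FZD5 (16.7 TPM), FZD3 (8.03 TPM) and FZD6 (7.93 TPM), and FZD2 and FZD10 stood last. The libraries of FZD3 and FZD6 overlapped in level. In NMP-L cells FZD5 (15.8 TPM), FZD2 (15.3 TPM) and FZD10 (14.9 TPM) followed FZD7, and the libraries of these 3 overlapped. FZD3, FZD4, FZD5, FZD6 and FZD9 had log2 fold changes between -0.18 and 0.20 and did not pass the test. The signs of all 5 depended on the scale, since relative to GAPDH counts those of FZD4, FZD5 and FZD9 became positive (0.49, 0.39 and 0.36), and relative to HPRT1 counts those of FZD3 and FZD6 became negative (-0.18 and -0.095). FZD2 and FZD7 were the only members with fractional expected counts, which arise where reads also align elsewhere. Their expected counts lay at most 0.24 of a count from a whole number. Exons of FZD4 and FZD6 overlap those of PRSS23 and BAALC-AS1 on the opposite strand.

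**Figure D2:**
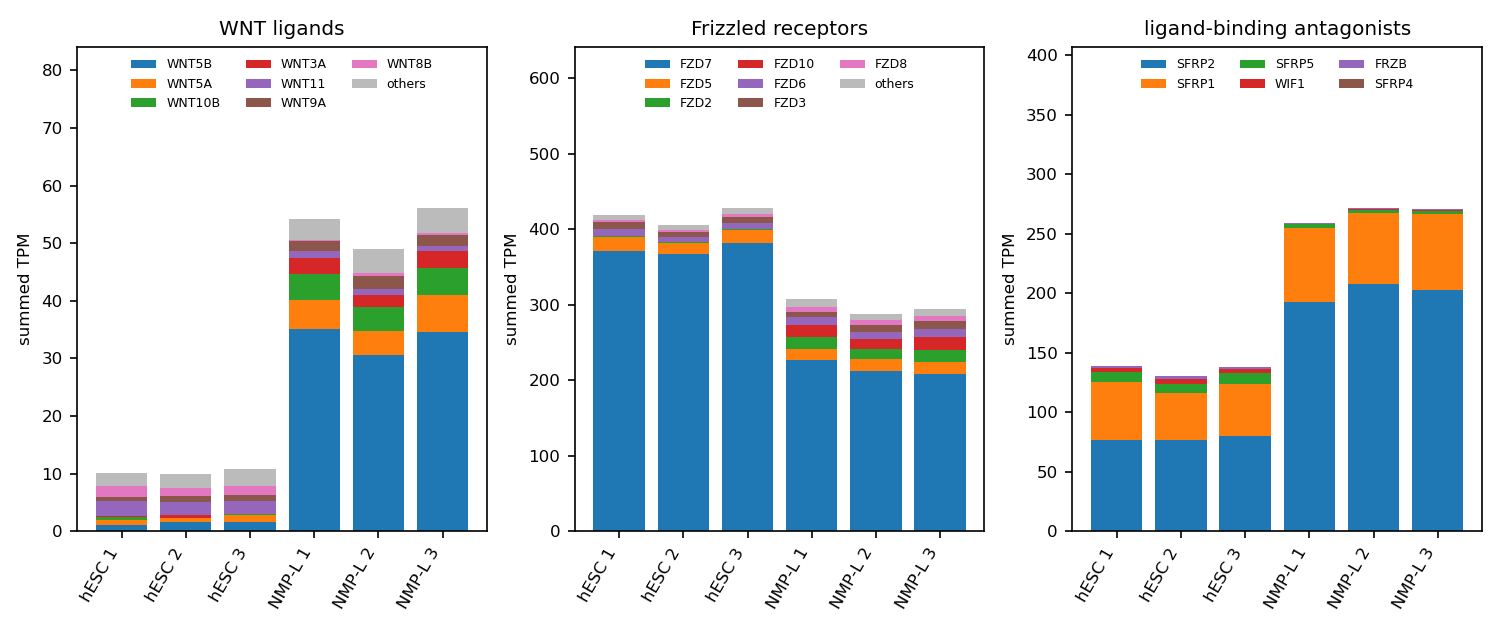
Summed TPM (y axis) of the WNT ligands, the Frizzled receptors and the ligand-binding antagonists in each of 6 libraries, stacked by gene, with up to 7 genes of each family, the most abundant, in colour and the others in grey. The ligand total rises from a mean of 10.2 to 53.1 TPM, mainly as WNT5B, the Frizzled total falls with FZD7, and the antagonist total rises with SFRP2.

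The 5 coreceptors and alternative receptors all passed the test with changes under 2-fold, 3 higher and 2 lower in NMP-L cells. Of all genes tested, 55.8% passed. RYK, a kinase-dead WNT receptor and the most abundant of the 5, had 52.1, 42.0 and 41.1 TPM in hESCs and 57.5, 70.8 and 72.8 TPM in NMP-L cells. The libraries of RYK did not overlap, although 1 NMP-L library was close to the highest hESC library, and the log2 fold change was 0.48 (SE 0.11, edgeR adjusted p = 0.0032). ROR2 and ROR1, receptor tyrosine kinases that bind WNT5A, had log2 fold changes of 0.64 (SE 0.12, edgeR adjusted p = 0.00098) and 0.29 (SE 0.10, edgeR adjusted p = 0.023). All 3 rises fell short of the threshold relative to HPRT1 counts, where the log2 fold change of ROR1 was -0.0024, and ROR1 passed in 11 of 16 alternatives (adjusted p from 0.00043 to 0.99). LRP5 and LRP6, the coreceptors of beta-catenin signalling, had log2 fold changes of -0.39 (SE 0.09, edgeR adjusted p = 0.0027) and -0.34 (SE 0.13, edgeR adjusted p = 0.044). Relative to GAPDH counts both changed sign, to 0.16 and 0.23. The LRP6 libraries overlapped between conditions, and LRP6 passed the threshold in 7 of 16 alternatives (adjusted p from 0.0014 to 0.27). The summed level of the 5 genes was 148 ± 15.04 TPM in hESCs and 173 ± 8.61 TPM in NMP-L cells (SD, n = 3).

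The ligand-binding antagonists moved in both directions, with 2 of the 5 tested higher and 3 lower in NMP-L cells. All 5 tested thus passed, where 55.8% of all genes tested did. SFRP2, a secreted Frizzled-like protein that binds WNT ligands, was the most abundant in both conditions, with 76.8, 76.8 and 79.9 TPM in hESCs and 192, 208 and 203 TPM in NMP-L cells. The log2 fold change of SFRP2 was 1.27 (SE 0.08, 2.41-fold, edgeR adjusted p = 1.3e-07), with no overlap between libraries. SFRP1, second in abundance, rose by a log2 fold change of 0.41 (SE 0.08, edgeR adjusted p = 0.0016), a call that was lost relative to HPRT1 counts (adjusted p = 0.64). SFRP5, the third of the family by level, fell from 8.47, 7.46 and 8.87 TPM to 2.78, 2.61 and 2.49 TPM, a log2 fold change of -1.75 (SE 0.16, 3.36-fold lower, edgeR adjusted p = 2.7e-06). FRZB, also named SFRP3, went from 1.58, 2.06 and 1.64 TPM to 0.42, 0.56 and 1.01 TPM. Its NMP-L libraries were all below its hESC libraries, with replicate 3 the closest, and the log2 fold change was -1.51 (SE 0.30, 2.84-fold lower, edgeR adjusted p = 0.0013). WIF1, which binds WNT proteins through a domain unrelated to Frizzled, had 3.73, 4.63 and 3.21 TPM in hESCs and 0.70, 1.11 and 0.82 TPM in NMP-L cells. The decrease in WIF1 left no overlap and was 4.70-fold (log2 fold change -2.23, SE 0.25, edgeR adjusted p = 1.7e-05). Because the antagonists that rose were the abundant ones, the median log2 fold change of the family was -1.51 while its summed level went from 136 ± 4.74 to 267 ± 7.08 TPM (SD, n = 3), of which SFRP2 held 57.5% in hESCs and 75.2% in NMP-L cells. SFRP4 had no counts in any library, which allows up to 3 counts, or 0.125 to 0.160 CPM.

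**Figure D3:**
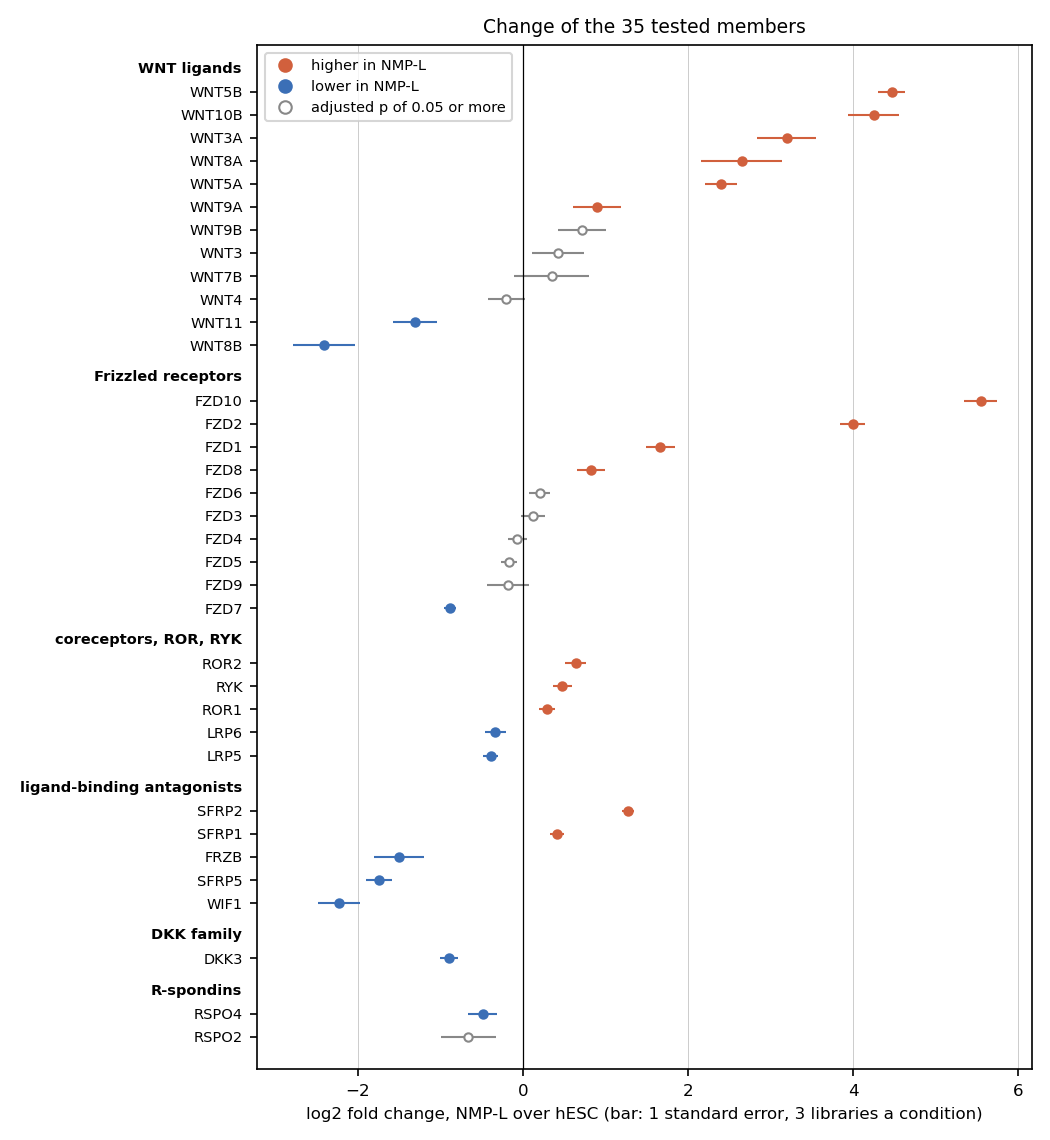
Log2 fold change of NMP-L over hESC (x axis, bars of 1 standard error, 3 libraries a condition) for the 35 tested genes, by family, with orange for genes higher in NMP-L cells, blue for lower and open grey for an adjusted p of 0.05 or more. FZD10, WNT5B, WNT10B and FZD2 lie furthest to the right at 5.54, 4.47, 4.25 and 3.99, and WNT8B and WIF1 furthest to the left at -2.41 and -2.23.

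Among the DKK genes, only DKK3 had enough counts to be tested. DKK3, a divergent member of the family that is not known to bind LRP6 as DKK1 does, had 18.8, 22.0 and 21.3 TPM in hESCs and 12.2, 11.2 and 12.0 TPM in NMP-L cells. Its libraries did not overlap and the log2 fold change was -0.90 (SE 0.11, 1.86-fold lower, edgeR adjusted p = 3.3e-05). DKK1 (GRCh37 chromosome 10, 54074041 to 54077802, plus strand), whose promoter is printed above, stayed near the floor, with 2, 1 and 3 reads counted at day 0 and 3, 10 and 15 at day 3. The libraries of DKK1 touched at 3 counts, and the ratio of summed counts was 3.98 with an exact 95% counting interval from 1.62 to 11.8. In a fit without the filter on low counts DKK1 had an adjusted p of 0.039 by edgeR, while 0 of the 3 fits leaving out a library that tested it passed (adjusted p from 0.058 to 0.11). Exons of DKK3 and DKK1 overlap USP47 and PRKG1-AS1 on the opposite strand.

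The R-spondins, secreted proteins that enhance WNT signalling by removing the ubiquitin ligases RNF43 and ZNRF3 from the cell surface, were low in both conditions, with summed levels of 5.14 ± 0.26 TPM in hESCs and 4.39 ± 1.44 TPM in NMP-L cells (SD, n = 3). RSPO4 was the most abundant, with 4.45, 4.69 and 4.08 TPM in hESCs and 3.41, 2.60 and 4.09 TPM in NMP-L cells. NMP-L replicate 3 lay just above the lowest hESC library in TPM, so the conditions overlapped on that scale, whereas in CPM they did not. The log2 fold change of RSPO4 was -0.49 (SE 0.17, edgeR adjusted p = 0.030), but the call held in 7 of 16 alternatives (adjusted p from 0.0065 to 0.76), and relative to GAPDH counts the value was 0.07. RSPO3 (GRCh37 chromosome 6, 127439816 to 127520626, plus strand), known from the primitive streak and tail bud, had 0 counts in each hESC library and 19, 8 and 61 counts in the NMP-L libraries. Against the floor of 3 counts per library the level of RSPO3 at day 3 was at least 8.03-fold higher, and at least 3.93-fold higher without NMP-L replicate 3, which held most of its counts. RSPO3 did not pass the filter on low counts, and in a fit without that filter its adjusted p was 0.00023 by edgeR. RSPO2 did not pass the test (log2 fold change -0.66, SE 0.33, edgeR adjusted p = 0.11). RSPO1 had 5, 5 and 8 counts in hESCs and 1, 0 and 5 in NMP-L cells, a ratio of hESC over NMP-L of 3.52 (exact 95% counting interval 1.34 to 10.8).

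A further 35 genes act at the membrane or outside the cell in the same pathway, among them ligand secretion factors, LGR receptors, ubiquitin ligases, planar cell polarity proteins and glypicans. Of these, 29 were tested and 19 (65.5%) passed, where 55.8% of all genes tested did. Among the 19, 13 were higher and 6 lower in NMP-L cells. The median log2 fold change of the 29 was 0.24, against 0.03 over all genes. WLS, the carrier that brings lipid-modified WNT proteins to the cell surface, was counted 39, 40 and 23 times at day 0 and 2321, 1888 and 2327 times at day 3. Its level was 1.51 ± 0.332 TPM in hESCs and 79.0 ± 6.49 TPM in NMP-L cells (SD, n = 3), a log2 fold change of 5.77 (SE 0.16, 54.4-fold, edgeR adjusted p = 8.4e-10). PORCN, the enzyme that attaches the lipid, had a log2 fold change of -0.13 (SE 0.15, edgeR adjusted p = 0.50). APCDD1, a membrane inhibitor that binds WNT and LRP5, rose 24.7-fold, from 0.717 ± 0.145 to 19.1 ± 1.65 TPM. The ubiquitin ligase RNF43 rose 5.89-fold, while its relative ZNRF3 and the R-spondin receptor LGR4 had log2 fold changes of -0.16 and -0.07 and did not pass (edgeR adjusted p = 0.16 and 0.66). PRICKLE1, a planar cell polarity component, rose 4.55-fold, and the remaining increases of at least 2-fold were those of LRP4 (2.33-fold) and NOTUM (2.14-fold), a secreted enzyme that removes the lipid from WNT proteins. Decreases of at least 2-fold were those of CTHRC1 (2.87-fold), GPC3 (2.42-fold), CELSR3 (2.15-fold) and GPC4 (2.00-fold).

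Of 12 genes known as transcriptional targets of WNT signalling, 8 rose in NMP-L cells, 2 fell and 2 did not pass the test. The share that passed was 83.3%, against 55.8% of all genes tested. The median log2 fold change of these targets was 2.64, against 0.03 over all genes. The 12 include T, CDX1 and CDX2, which are also markers of NMP cells. T was the check of the labels above, so its rise here is not a separate result. T, CDX1, CDX2 and SP5 had at most 6 counts in any hESC library and passed the filter on low counts through their NMP-L libraries. SP5 had 5, 6 and 6 counts in hESCs and 1344, 1066 and 1352 in NMP-L cells, and rose by a log2 fold change of 7.53 (SE 0.17, edgeR adjusted p = 2.2e-10). LEF1, a partner of beta-catenin, rose 10.7-fold from 1.51 ± 0.237 to 16.9 ± 2.90 TPM (SD, n = 3), and TNFRSF19 rose 9.65-fold from 3, 14 and 2 counts to 103, 41 and 75 counts. CDX1 had 0, 0 and 4 counts in hESCs and 312, 202 and 321 in NMP-L cells, and CDX2 had 0, 1 and 0 counts against 522, 326 and 607. The targets did not all rise, since MYC fell 4.05-fold, from 55.5 ± 1.454 to 14.6 ± 0.247 TPM (SD, n = 3), and AXIN2, a feedback inhibitor, had a log2 fold change of -0.35 (SE 0.09, edgeR adjusted p = 0.0081).

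**Figure D4:**
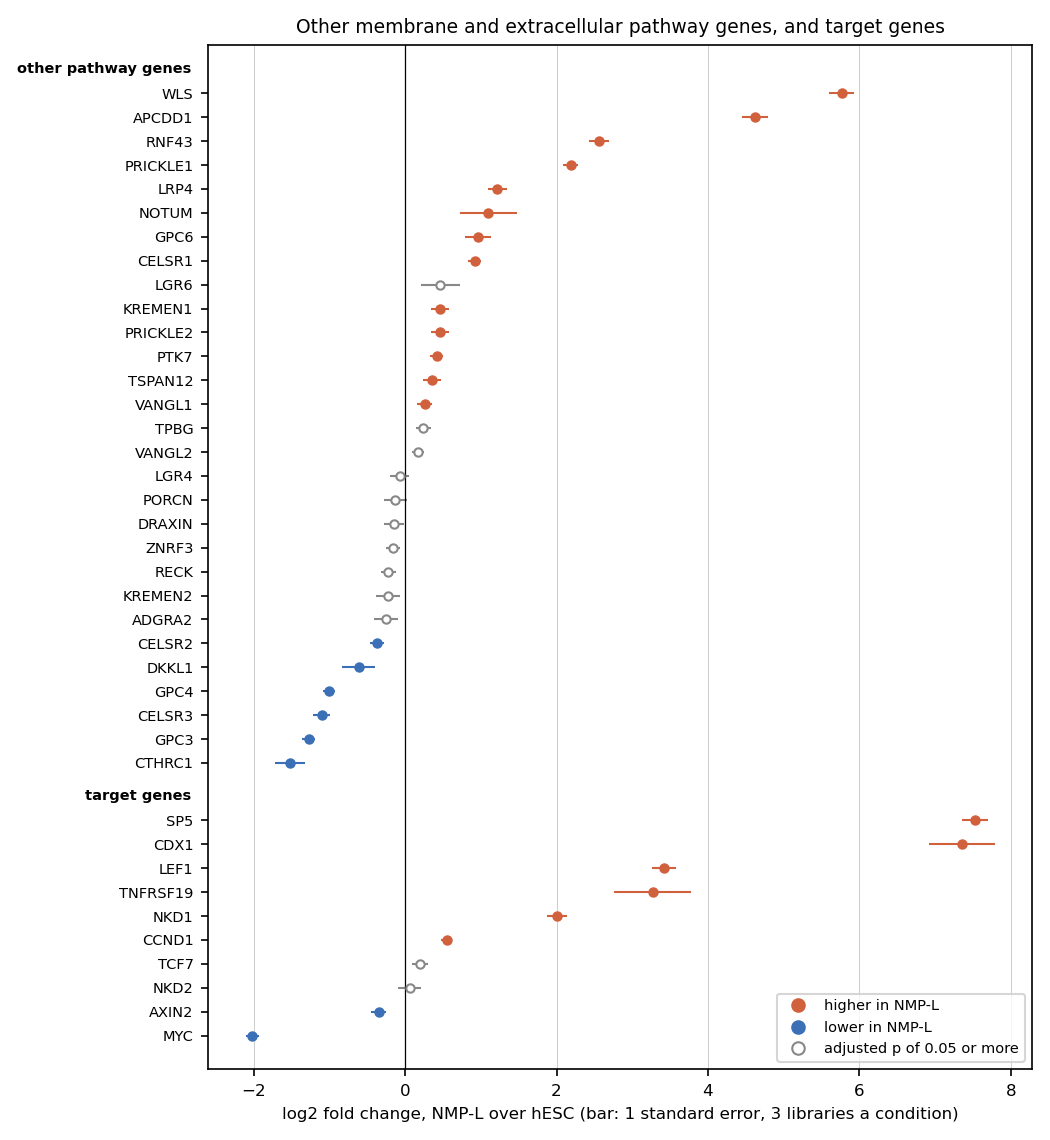
Log2 fold change of NMP-L over hESC (x axis, bars of 1 standard error, 3 libraries a condition) for the other tested membrane and extracellular pathway genes and for the target genes with more than 3 counts in all in hESCs, coloured as higher (orange), lower (blue) or not past the threshold (open grey). WLS at 5.77 and APCDD1 at 4.63 stand apart among the pathway genes, and SP5 at 7.53 and CDX1 at 7.35 among the targets.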

How the data were processed

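RNA-seq was analysed for 3 hESC and 3 NMP-L libraries, prepared with a poly(A) mRNA kit and sequenced as single-end reads. The authors deposited expected counts per gene from RSEM, which share reads that align to several genes, and 8.44% of genes had a fractional value. TPM, a unit scaled for transcript length and library total, were deposited beside the counts by the authors. The submitters' processing notes name cutadapt 1.9.1, STAR 2.5.2a, RSEM 1.3.0, DESeq2 1.12.3 and the build hg19, and the use of strand in counting is not given in the sources used here. Each library had a column of each unit, and all were used.

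Expected counts were rounded and tested in R 4.3.3 with edgeR 4.0.16 (filterByExpr with a minimum count of 10, TMM scaling, glmQLFit and glmQLFTest for condition, Benjamini-Hochberg adjustment over all 15517 genes tested, threshold 0.05). The standard error is the size of the log2 fold change divided by the square root of F. CPM are TMM-scaled. With 19454543 to 23036426 counts per library the floor of 3 counts lies between 0.125 and 0.160 CPM, and ratios of low counts carry exact 95% counting intervals. Replicates differed by more than sampling noise, so none was merged. The scripts were tested on simulated data. Alternatives were run with DESeq2 1.42.0, limma 3.58.1 on log2(TPM + 0.1), other scalings, other filters, a replicate block and each library left out.

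The 48 genes and the other lists were chosen with earlier results of these data known. Values in every library are given for genes that passed with at least a 2-fold change and averaged 1 CPM or more in the higher condition, for genes at or under 3 counts in every library of 1 condition and at least 1 CPM in the other, and for the most abundant gene of each family. Of the other lists, genes changed at least 2-fold were named, at most 6 in each direction. DKK1, WNT8A, WNT9A, WNT7A, WNT10A, RSPO1, FZD8, PORCN, ZNRF3, LGR4 and AXIN2 were given values outside this rule, after these were seen. Test results of WNT9B, ROR1, ROR2, LRP5, LRP6, SFRP1 and RSPO2 were also given outside it.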

Additional observations from a re-analysis of the deposited data

How the results depend on the processing

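The 35 tested genes were refitted under 16 alternatives, and 24 of them kept their direction, and 17 both their direction and their side of the threshold, in every one that tested them. The 14 genes with changes of at least 2-fold all kept their call and direction, as did FZD7 and DKK3 among the 11 smaller calls. Of the 14, 11 stayed at least 2-fold in every alternative that tested them. WNT11, FRZB and SFRP2 did not, with log2 fold changes as small as -0.77, -0.93 and 0.97. The count of genes that differed was 25 of 35 (71.4%), against 55.8% of all genes tested. It was 24 by DESeq2 (68.6%, against 52.9% of all genes in that fit). By limma on log2(TPM + 0.1) it was 23 (65.7%, against 56.2%). With scaling by library size alone it was 24 (68.6%, against 57.4%). Relative to GAPDH it was 28 (80%, against 73.8%), and relative to HPRT1 it was 20 (57.1%, against 45.7%). Without the filter on low counts it was 28 of 46 genes (60.9%, against 43.3%). Relative to HPRT1, 9 genes were higher in place of 15, and that scale places the median of all genes 0.30 lower on the log2 scale. With at least 10 counts required in every library, which removes genes that are near absent in 1 condition, 9 genes differed by at least 2-fold in place of 14, and 5 of the target genes differed in place of 10. Signs were reversed relative to GAPDH, which places all genes 0.56 higher, for WNT4 (0.36), FZD4 (0.49), FZD5 (0.39), FZD9 (0.36), LRP5 (0.16), LRP6 (0.23) and RSPO4 (0.073), and relative to HPRT1 for FZD3 (-0.18), FZD6 (-0.095) and ROR1 (-0.0024). Values near 0 also changed sign for FZD4 with scaling by library size alone (0.0060) and by limma (0.031), for WNT7B without hESC replicate 1 and for FZD3 without NMP-L replicate 3, where the fits without 1 library ranged from -0.024 to 0.63 and from -0.00025 to 0.25. Leaving out each library in turn gave 21 to 26 genes that differed and 13 to 15 by at least 2-fold. Those that differed were 60% to 68.4% of the members tested, against 45.9% to 56.2% of all genes in the same fits. The calls of WNT9A and ROR1 were each lost in 3 of these 6 fits, and those of LRP6 and RSPO4 in 5 of 6, and the cause was not tested. Libraries that share a replicate number did not deviate together (correlations of -0.37, -0.13 and -0.06), so the numbers were not taken to pair them. A fit with a replicate block gave 23 genes, 15 higher and 8 lower, without LRP6 (adjusted p = 0.071) and RSPO4 (adjusted p = 0.053), and 7560 of all genes in place of 8653. Genes under about 10 counts, among them DKK1, WNT7A, WNT10A and RSPO1, are limited by depth, since their ratios have counting intervals that span several-fold.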
